A study of Mus musculus with 4 samples.

Results

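The genes described here are 8 structural and lipid genes of central nervous system myelin (Mbp, Mog, Mag, Mobp, Cnp, Mal, Cldn11 and Ugt8a) together with Myrf, the transcription factor that oligodendrocytes need to make myelin. They were chosen by symbol, and all 9 were found among the 46946 genes of the deposited table. The values come from polyA RNA sequencing of 4 mouse tumours. According to the sample labels, the tumours were untreated, carried the K27M genotype and derived from neural stem cells with PDGF (PDGFB in the titles). K27M replaces lysine 27 of histone H3. The series text speaks instead of injected DIPG cells, from a pontine glioma, with mutant histone H3.3. The labels give no strain, age, tumour site, promoter for PDGFB or number of founding clones, and they do not say how much host brain each tumour sample held. All 4 tumours belong to the group PDGFB K27M, which has no normal brain, cultured cell or second genotype beside it. The libraries carry the names T14, T10, T8 and TUN in the table, which match no single sample title, and held 21664889 to 24369339 counts.

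Myelin is the stack of membrane that oligodendrocytes wrap around axons. Precursor cells marked by Pdgfra first become newly formed oligodendrocytes and then, under Sox10 and Myrf, switch on the proteins and lipids of the sheath. Some myelin genes, such as Cnp and Ugt8a, are known to come on early in this sequence, and others, such as Mog, late. Gliomas of this kind are known for resemblance to the precursor stage.

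Promoter sequences are shown for 5 of the genes, to set members whose level differed widely between tumours (Mobp, Mag and Mog) beside members whose level differed little (Cldn11 and Ugt8a). RefSeq windows on GRCm38.p6 matched 7 of the 9 genes, all but Mbp and Myrf. Each sequence runs 5′ to 3′ on the strand of the gene and ends before the first annotated transcribed base. Capitals mark CTGGCAC and CTGGTAC, forms of the site that MYRF protein binds, and ACAAAG, a core letter string of Sox protein sites, on either strand (ACAAAG then reads CTTTGT). The windows are chr9:120149492-120149706 on the plus strand for Mobp, chr7:30914923-30915172 on the minus strand for Mag, chr17:37023399-37023648 on the minus strand for Mog, chr3:31149670-31149919 on the plus strand for Cldn11 and chr3:125938653-125938902 on the minus strand for Ugt8a.
Mobp: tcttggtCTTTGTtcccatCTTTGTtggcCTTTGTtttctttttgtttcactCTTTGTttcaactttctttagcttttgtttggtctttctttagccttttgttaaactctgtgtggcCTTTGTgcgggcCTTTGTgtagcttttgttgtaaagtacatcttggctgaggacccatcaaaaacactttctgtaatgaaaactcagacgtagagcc
Mag: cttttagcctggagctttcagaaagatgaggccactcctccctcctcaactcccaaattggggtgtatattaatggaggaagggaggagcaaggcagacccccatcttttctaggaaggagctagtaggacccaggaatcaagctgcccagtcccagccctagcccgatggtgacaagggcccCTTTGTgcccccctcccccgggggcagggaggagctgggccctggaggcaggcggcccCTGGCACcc
Mog: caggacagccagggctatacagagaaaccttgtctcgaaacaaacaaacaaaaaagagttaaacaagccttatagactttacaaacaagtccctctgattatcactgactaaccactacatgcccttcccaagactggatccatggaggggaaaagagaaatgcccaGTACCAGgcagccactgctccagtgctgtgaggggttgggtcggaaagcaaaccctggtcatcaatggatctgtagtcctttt
Cldn11: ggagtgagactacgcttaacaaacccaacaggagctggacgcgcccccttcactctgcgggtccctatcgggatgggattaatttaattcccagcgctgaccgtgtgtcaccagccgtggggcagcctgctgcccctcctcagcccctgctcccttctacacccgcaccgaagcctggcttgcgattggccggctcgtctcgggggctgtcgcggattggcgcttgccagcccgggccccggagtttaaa
Ugt8a: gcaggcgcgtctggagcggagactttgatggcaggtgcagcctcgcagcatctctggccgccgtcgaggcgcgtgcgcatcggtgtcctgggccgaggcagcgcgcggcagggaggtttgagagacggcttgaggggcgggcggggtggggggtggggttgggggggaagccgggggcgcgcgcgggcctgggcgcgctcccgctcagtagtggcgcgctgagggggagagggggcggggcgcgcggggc
Within 250 bases upstream of the RefSeq start, Mobp held 6 matches to ACAAAG. Of 32851 RefSeq windows of the same length, that of Mobp included, it was the only 1 with 6 or more. That limit is Mobp's own count, so this describes the window and is not a test. All 6 matches read CTTTGT on the printed strand. RefSeq gives 3 windows for Mag. The printed one and another that overlaps it hold the same matches, and the third holds none of the strings. Windows of Mag and Cnp also held ACAAAG, as did 16.5% of all windows. CTGGCAC was in windows of Mag and Cnp, and in 4.19% of all windows. CTGGTAC was in the window of Mog, and in 1.83% of all windows. ACAATG, another Sox string, was searched on both strands as well and was in no window of the 7 genes, and in 10.7% of all windows. None of these strings overlaps another in the printed windows, and the windows of Mal, Cldn11 and Ugt8a held none of the 4. The printed windows of Cldn11 and Ugt8a held 19 and 32 CpG dinucleotides, against 2 for Mobp, 3 for Mag and 2 for Mog. CpG was counted over 215 bases for Mobp and Cnp and over 250 for the other genes. The windows of Mal and Cnp, which are not printed, held 7 each, and the median over all windows was 6 (quartiles 2 and 16). Mal differed widely between tumours and held none of the strings, whereas Cnp differed little and held CTGGCAC and ACAAAG. Matches thus did not separate the members with wide ranges from those with narrow ones. A letter match describes the sequence and says nothing about binding in these tumours.

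All 9 genes were detected in all 4 tumours, meaning a CPM (count scaled to library size) of 1 or more in each. Their levels did not move as one. Mbp, Mog, Mag, Mobp and Mal were 5.66-fold to 10.9-fold higher in T10 than in TUN, whereas Cnp, Cldn11 and Ugt8a spanned 1.48-fold to 1.66-fold between their highest and lowest tumour. Myrf spanned 2.76-fold. Together the 9 genes took 0.416% of counts in T10, 0.309% in T14, 0.127% in TUN and 0.125% in T8.

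Mbp (ENSMUSG00000041607.16, chromosome 18) encodes myelin basic protein, which holds the inner faces of the membrane together. Its level was 2268 CPM in T10, 1764 in T14, 379 in TUN and 486 in T8, a mean of 1224 ± 938 CPM (SD, n = 4). T14 and T10 were high, T8 and TUN low, and no tumour lay between. The Mbp locus also yields Golli transcripts, known from precursors, neurons and immune cells, and gene counts do not separate them from the myelin form. Mobp (ENSMUSG00000032517.15, chromosome 9, 120149742 to 120181484, mm10) encodes another small basic protein of compact myelin. It stood at 728 CPM in T10, 526 in T14, 75.02 in TUN and 105 in T8, a 9.70-fold range with the same tumours high and low as for Mbp. Mal (ENSMUSG00000027375.14, chromosome 2, 127633226 to 127656695), a proteolipid that takes part in sorting membrane to the sheath, stood at 138 CPM in T10, 98.2 in T14, 16.4 in TUN and 18.8 in T8, an 8.40-fold range.

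Mag and Mog encode immunoglobulin-domain proteins of the parts of the sheath that face the axon and the outside. Mag (ENSMUSG00000036634.15, chromosome 7, 30899176 to 30914873) stood at 134 CPM in T10, 91.7 in T14, 23.7 in TUN and 30.1 in T8. Mog (ENSMUSG00000076439.12, chromosome 17, 37010743 to 37023398), on the outermost layer and a late gene of the sequence, stood at 49.7 CPM in T10, 30.5 in T14, 4.55 in TUN and 6.79 in T8. It was the least abundant member in CPM and had the widest range, 10.9-fold. The count behind the TUN value was 102, and its 95% exact binomial interval runs from 3.71 to 5.53 CPM, below the value in T8. That interval is the widest of the 36 member values, 19.9% to either side on average, and like the others it covers counting error only.

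The remaining structural and lipid genes did not follow this pattern. Cnp (ENSMUSG00000006782.16, chromosome 11, 100574904 to 100591729) encodes the phosphodiesterase that keeps cytoplasmic channels in the sheath open. It stood at 399 CPM in T10, 357 in T14, 273 in TUN and 270 in T8 (325 ± 63.8 CPM, SD, n = 4), with the same tumours above and below the mean as for Mbp but close together. Of its exons, 154 bases overlap Dnajc7 on the opposite strand, and reads there cannot be told apart in a library that does not mark strand. No other member shared exon bases with another gene. Cldn11 (ENSMUSG00000037625.7, chromosome 3, 31149920 to 31164324), the claudin of the tight junctions in the sheath, stood at 129 CPM in T10, 93.8 in T14, 155 in TUN and 139 in T8. T14 was the lowest and TUN the highest. Ugt8a (ENSMUSG00000032854.12, chromosome 3, 125865271 to 125938619) makes galactosylceramide, the main glycolipid of myelin. It stood at 222 CPM in T10, 172 in T14, 275 in TUN and 179 in T8, again lowest in T14 and highest in TUN.

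Myrf (ENSMUSG00000036098.15, chromosome 19, 10208272 to 10240748) had a range between the wide and the narrow ones. It stood at 61.6 CPM in T10, 43.5 in T14, 22.3 in TUN and 34.4 in T8 (40.4 ± 16.5 CPM, SD, n = 4). T10 was high, TUN low, and T14 and T8 were nearer to each other than to either. The CPM ratio of Mobp to Myrf was 11.8 in T10, 12.1 in T14, 3.37 in TUN and 3.06 in T8, and that of Mal to Myrf was 2.24 in T10, 2.26 in T14, 0.735 in TUN and 0.547 in T8. The ratio of Ugt8a to Myrf ran the other way, at 3.60 in T10, 3.96 in T14, 12.3 in TUN and 5.19 in T8.

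**Figure D1:**
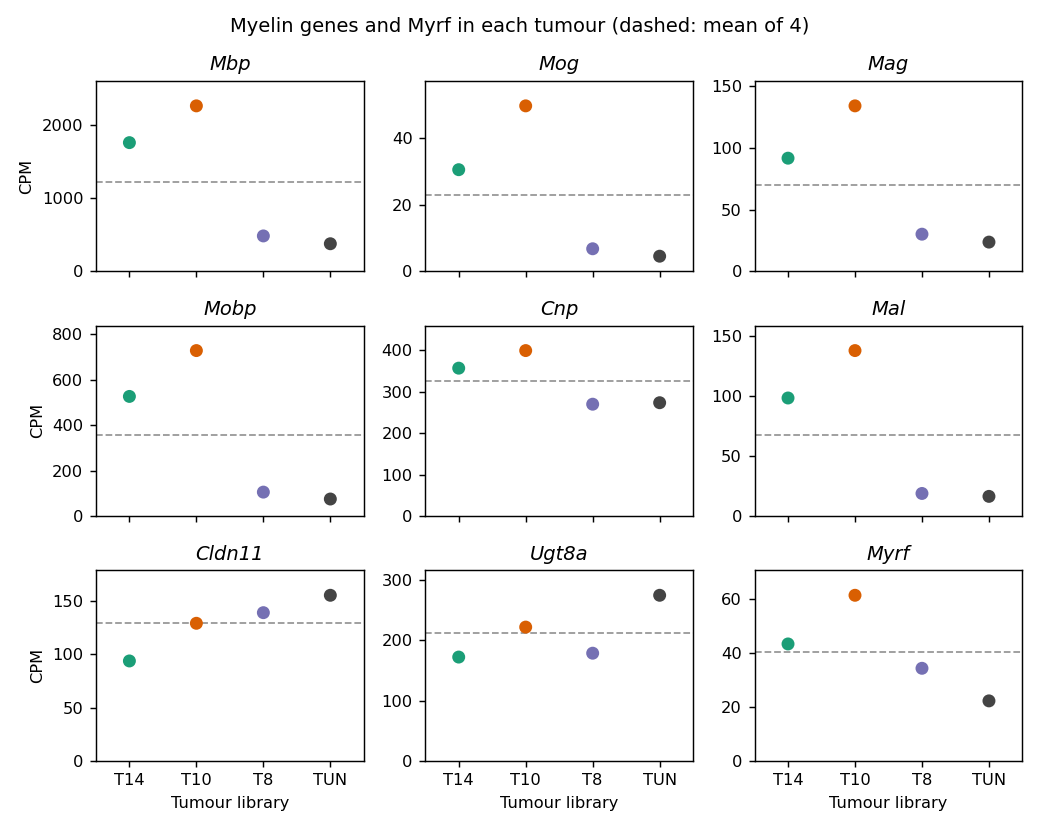
Level of each of the 9 genes (vertical axis, CPM from 0, a scale of its own per gene) in the 4 tumour libraries (points), with the mean of the 4 as a dashed line. Mbp, Mog, Mag, Mobp and Mal are high in T14 and T10, while Cldn11 and Ugt8a are highest in TUN.

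To compare the spread between tumours with that of other genes of like abundance, an intercept-only edgeR model was fitted to all genes and each gene's goodness of fit was tested, with Benjamini-Hochberg adjustment and a threshold of 0.05. Of the 9 members, all tested, 5 passed, against 619 of 14266 genes tested (4.34%). The 5 were Mobp (adjusted p = 1.05e-05 in edgeR), Mal (3.60e-05), Mog (0.00105), Mbp (0.00142) and Mag (0.00563). Cnp, Cldn11, Ugt8a and Myrf did not pass (each adjusted p = 1 in edgeR; unadjusted goodness-of-fit p 0.758, 0.728, 0.694 and 0.234), which does not show that they were equal between tumours. Of the 9 members, 5 had a range of 4-fold or more, as did 8.85% of genes tested. They were the same 5 that passed, and since the goodness of fit itself measures spread, their range is not separate support. Without T10, Mog (adjusted p = 0.168 in edgeR) and Mag (0.304) were no longer called, and without TUN, Mbp (0.130) and Mag (0.127) were not, so that 3 of 9 were called in each case (3.22% of genes tested without T10 and 2.91% without TUN). As dispersion outliers in DESeq2, 0 of the 9 and 78 of 14266 genes (0.547%) were called.

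T14 and T10 were the 2 highest tumours for 7 of the 9 genes, as for 33.0% of genes tested. T10 alone was the highest for 7, against 20.7% of genes tested, and TUN the lowest for 6, against 24.4%. Each of the 9 genes was higher in T10 than in T14, by 1.12-fold to 1.63-fold, including Cldn11 and Ugt8a. Among genes tested 45.9% were higher in T10 than in T14. The median deviation of the members from each gene's own mean of log2 CPM was 1.29 in T10, 0.75 in T14, -1.20 in TUN and -0.85 in T8, whereas the median over all genes tested lay within 0.01 of 0 in every tumour. The members' median kept its sign when 1 tumour was left out, but its size moved: in T14 it was 0.33 without TUN, 0.45 without T8 and 1.18 without T10, and without T10 it was -0.42 in T8 and -0.76 in TUN.

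**Figure D2:**
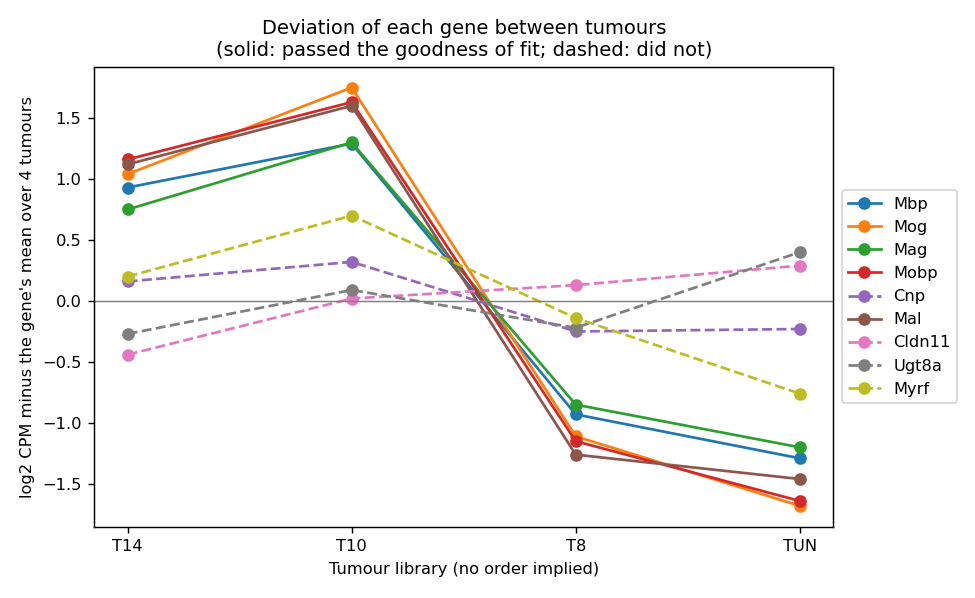
log2 CPM of each gene minus its mean over the 4 tumours (vertical axis) in each library (horizontal axis), with solid lines for the 5 genes that passed the goodness of fit and dashed lines for the 4 that did not. The 5 solid lines run together, from 0.75 to 1.75 in T14 and T10 and from -0.85 to -1.68 in T8 and TUN, and the dashed lines lie between -0.76 and 0.70.

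Within the group, likeness was measured as the root mean square difference of 2 deviation profiles over the 4 tumours, in log2 units. Of the 36 pairs, Mog and Mobp were nearest (0.087), followed by Mbp and Mag (0.108), Mobp and Mal (0.110), and Mog and Mal (0.155). The ratio of Mog to Mobp accordingly spanned 1.17-fold over the tumours and that of Mbp to Mag 1.22-fold, although each of these 4 genes spanned over 5-fold. Cldn11 and Ugt8a were nearest to each other (0.205). The farthest pair was Mog and Cldn11 (1.63), whose ratio spanned 12.7-fold. Outside the group, the 6 genes nearest to the mean profile of the 9 were Ncdn (0.0238), Fhdc1 (0.0541), Gdap1 (0.0628), AI854703 (0.0633), Btbd11 (0.0665) and Cgnl1 (0.0703). Ncdn stood at 457 CPM in T10, 346 in T14, 136 in TUN and 152 in T8. The mean profile, 0.97 in T10, 0.52 in T14, -0.84 in TUN and -0.64 in T8, averages genes that differed widely with genes that did not, and none of these 6 passed the goodness of fit in edgeR.

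Levels of different genes were compared per length, as RPKM (CPM per kilobase of merged exons). In mean RPKM the order was Mbp (146 ± 112), Cnp (89.2 ± 17.5), Cldn11 (69.2 ± 13.96), Mobp (55.3 ± 49.5), Ugt8a (46.7 ± 10.4), Mal (24.4 ± 21.7), Mag (17.2 ± 12.9), Mog (13.4 ± 12.6) and Myrf (4.72 ± 1.93; SD, n = 4 for each). The order itself depended on the tumour. Mbp led in T14 and T10, at 210.0 and 269.9 RPKM, and Cldn11 led in T8 and TUN, at 74.4 and 83.1 RPKM. Cnp lay close behind Cldn11 there, at 74.1 RPKM in T8 and 75.1 in TUN. Of the 8 neighbouring pairs in this order, only Mag and Mog kept the same sign in all 4 tumours with a mean log2 RPKM difference beyond its SD (0.62 ± 0.44). The other 7 did not differ beyond their spread. For Mobp and Ugt8a the mean log2 difference was even below 0 (-0.34 ± 1.77), because Mobp exceeded Ugt8a in T14 and T10 and lay below it in T8 and TUN. With 4 tumours an exact sign-flip test cannot give a p below 0.125, so no pair could be called. Merged exons of Mbp measure 8403 bases, but its longest transcript in GENCODE vM21 measures 4797. With the longest transcript as length, Mbp stood at a mean of 255 ± 196 RPKM and still led, and Mobp lay above Cldn11, at 109 ± 97.7 against 69.2 ± 13.96 RPKM. With that length Cldn11 no longer led in T8 or TUN, where Cnp lay above it.

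**Figure D3:**
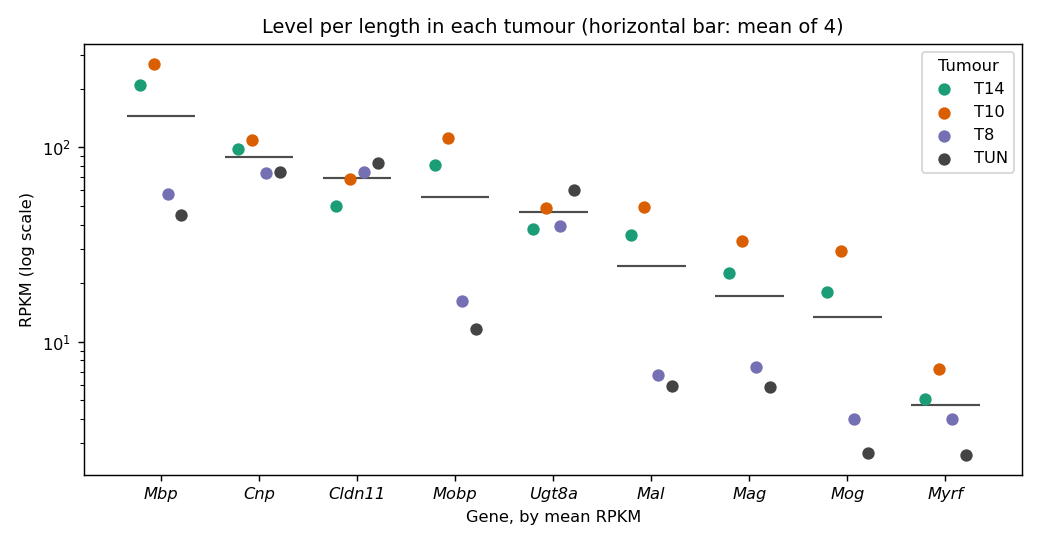
RPKM of the 9 genes (vertical axis, log scale) in each tumour (points coloured by library), ordered by mean RPKM (horizontal bars). Points of Cnp, Cldn11 and Ugt8a cluster between 37.9 and 109.6 RPKM, whereas those of Mobp spread from 11.6 to 112.3 RPKM.

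Other genes of mature oligodendrocytes were also divided between wide and narrow ranges. Among 21 other genes of the sheath, paranode and mature oligodendrocyte, 3 passed the goodness of fit, so that the share called was 55.6% of the members and 14.3% of these. In DESeq2 0 of the 21 were dispersion outliers. At an unadjusted p under 0.05 in edgeR there were 7, beside 1196 of 14266 genes tested. Ermn, a cytoskeletal gene of the late sheath, stood at 77.7 CPM in T10, 57.0 in T14, 10.5 in TUN and 17.3 in T8 (adjusted p = 0.00673 in edgeR). The others were Cntn2, a gene of axon and glia near the node (adjusted p = 2.18e-08 in edgeR), and the tubulin-binding gene Tppp (0.0244). Cntn2 is also known from neurons and was highest in T14, at 147 CPM, against 107 in T10, 15.5 in T8 and 8.22 in TUN. Pllp, Omg and Gsn, the most abundant of the 21 per length, stood at 116 ± 26.97, 79.5 ± 14.5 and 74.8 ± 21.9 RPKM and did not pass, and like Cldn11 and Ugt8a they were highest in TUN. Over the 21 genes the median deviation was 0.14 in T10, 0.15 in T14, -0.12 in TUN and -0.34 in T8.

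Ratios to Sox10, a lineage factor that itself spanned 1.49-fold, mostly follow each member's own range and are not separate support. The CPM ratio of Mbp to Sox10 was 3.76 in T10, 2.76 in T14, 0.450 in TUN and 0.541 in T8, an 8.36-fold span, and that of Cldn11 to Sox10 was 0.214 in T10, 0.147 in T14, 0.185 in TUN and 0.155 in T8, a 1.46-fold span.

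Of 6 genes of myelin lipid synthesis, 2 passed the goodness of fit in edgeR (33.3%), and 0 were dispersion outliers in DESeq2. Fa2h, which hydroxylates the fatty acid that Ugt8a's product carries, stood at 34.03 CPM in T10, 18.5 in T14, 4.02 in TUN and 5.15 in T8 (adjusted p = 0.0207 in edgeR). Aspa, which frees acetate from N-acetylaspartate, stood at 21.4 CPM in T10, 12.1 in T14, 1.70 in TUN and 3.02 in T8 (adjusted p = 0.0166 in edgeR). Gal3st1, which adds sulfate to the lipid made by Ugt8a, did not pass and stood at 15.7 CPM in T10, 16.6 in T14, 21.1 in TUN and 31.3 in T8. Cers2 and Elovl1, for very long chain lipids, stood at 41.6 ± 8.75 and 12.6 ± 2.45 RPKM and did not pass either. Along the galactolipid route, Fa2h thus had the tumour order of Mog, and Ugt8a and Gal3st1 did not.

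The leading genes of the stages before myelin were abundant in every tumour, but some others differed widely. Among tested genes, 1 newly formed oligodendrocyte gene (Neu4), 1 precursor gene (Sox6) and 2 regulators (Nkx6-2 and Zfp536) ranged 4-fold or more. So did 8.85% of all genes tested. Neu4, Nkx6-2 and Zfp536 were higher in T14 and T10 than in T8 and TUN, and Sox6 was highest in TUN. In the edgeR goodness of fit, 0 of 9 tested genes of newly formed oligodendrocytes and 0 of 10 precursor genes passed. Of the regulators that favour myelin genes, 0 of 13 passed. At an unadjusted p under 0.05 these lists held 1, 1 and 2 genes, and 0 in each were dispersion outliers in DESeq2. Over all genes tested, 4.34% passed, 1196 of 14266 had an unadjusted p under 0.05 and 0.547% were dispersion outliers. In lists this short, 0 passing is near the share over all genes. The median RPKM was 46.7 over the 9 members, 7.93 over 10 genes of newly formed oligodendrocytes, 70.3 over the precursor genes and 27.9 over the regulators. Among the newly formed oligodendrocyte genes, Fyn, Bcas1 and Gpr17 were most abundant (146 ± 37.5, 98.1 ± 9.43 and 57.0 ± 23.9 RPKM). Pdgfra, the PDGF receptor of precursors, stood at 218 ± 76.8 RPKM, Lhfpl3 at 381 ± 74.3 and Ptprz1 at 184 ± 21.9 RPKM (SD, n = 4 each). Of the regulators, Olig1, Olig2 and Sox10, the lineage factors, were most abundant, with Sox10 at 603 CPM in T10, 640 in T14, 841 in TUN and 898 in T8. Sox10 did not pass and was highest in T8 and TUN, where Mbp, Mog, Mag, Mobp and Mal were low. Of 8 genes known to restrain myelination, Id4 and Gpr37 passed (adjusted p = 0.00399 and 0.00437 in edgeR), both higher in T14 and T10, and 0 of the 8 were dispersion outliers in DESeq2. Gpr37, a receptor that oligodendrocytes themselves express, stood at 65.8 CPM in T10, 42.7 in T14, 8.48 in TUN and 11.98 in T8. Id2, Rhoa and Hes1 were the most abundant of that list per length (140 ± 18.4, 31.6 ± 4.70 and 19.1 ± 5.62 RPKM) and did not pass.

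The summed levels of neuron and of astrocyte markers were higher in T10 and T14 than in TUN and T8, as were the members that differed widely. The sum of the 9 myelin genes was 4129 CPM in T10, 3177 in T14, 1224 in TUN and 1269 in T8. Of 10 neuron genes 9 passed the edgeR goodness of fit and 5 were dispersion outliers in DESeq2, and their summed level was 2782 CPM in T10, 3538 in T14, 363 in TUN and 398 in T8. Snap25 was the most abundant (114 ± 117 RPKM), followed by Tubb3 (77.7 ± 33.6 RPKM), which did not pass and stood at 217 CPM in T10, 111 in T14, 175 in TUN and 77.6 in T8. Of 10 astrocyte genes 5 passed in edgeR, 9 had an unadjusted p under 0.05 and 0 were dispersion outliers in DESeq2. Aldoc and Gfap were most abundant (218 ± 175 and 196 ± 145 RPKM). The sum of the astrocyte genes was 4694 CPM in T10, 7230 in T14, 2178 in TUN and 2456 in T8. Slc1a3 and Sox9, also of the astrocyte list, did not pass, and Sox9 was highest in T8, at 239 CPM, against 111 in T10, 101 in T14 and 57.3 in TUN. The sum was highest in T10 for the myelin genes and in T14 for neuron and astrocyte genes. In each of the latter lists, 3 of 10 genes were higher in T10 than in T14. The neuron list was thus divided, with 7 genes highest in T14 and 3 in T10. Nefl stood at 305 CPM in T10 and 145 in T14, and Slc17a6 at 90.4 CPM in T10 and 26.1 in T14. Both passed in edgeR and had the tumour order of Mog, so a peak in T10 was not confined to myelin genes. The members shared a higher level in T10 than in T14 with 9 of 10 precursor genes and 5 of 6 lipid genes. So did 7 of 9 tested genes of newly formed oligodendrocytes and 9 of 13 regulators. Of the 21 other genes of the sheath, paranode and mature oligodendrocyte, 12 did, beside 45.9% of genes tested. This compares T10 with T14 only: of the precursor genes, 1 was highest in T10 and 6 were highest in T8. No neuron or astrocyte marker was at 0 in all tumours. In bulk RNA, fewer mature oligodendrocytes in a sample and less myelin RNA per cell cannot be told apart, and the part of host brain tissue in these values was not tested.

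Mitosis genes ran the other way, with a summed level of 827 CPM in T10, 805 in T14, 1888 in TUN and 1436 in T8, led by Top2a and Cdc20 (48.0 ± 21.5 and 38.4 ± 19.1 RPKM). None of the 10 passed in edgeR, beside 4.34% of genes tested. At an unadjusted p under 0.05 there was 1, beside 1196 of 14266 genes tested, and 0 were dispersion outliers in DESeq2. All 10 were highest in TUN, against 3592 of 14266 genes tested. Microglia genes summed to 542 to 720 CPM, with C1qa and C1qb leading (153 ± 34.9 and 97.9 ± 29.0 RPKM). Of these, 0 of 9 passed in edgeR, 0 had an unadjusted p under 0.05 and 0 were dispersion outliers in DESeq2. Endothelial genes summed to 219 to 282 CPM, with Cldn5 and Ly6c1 leading (43.7 ± 10.1 and 6.20 ± 4.32 RPKM). In edgeR 1 of 7, Slco1a4, passed and 2 had an unadjusted p under 0.05, and 0 were dispersion outliers in DESeq2. Of 6 Schwann cell genes, which would mark myelin of peripheral nerve, Pmp2 had 1 count in all. Pmp22 and Egr2 were most abundant (78.5 ± 15.2 and 8.83 ± 4.74 RPKM). Both are known outside Schwann cells. Of the list, 0 of 4 tested genes passed in edgeR, 1 had an unadjusted p under 0.05 and 0 were dispersion outliers in DESeq2.

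**Figure D4:**
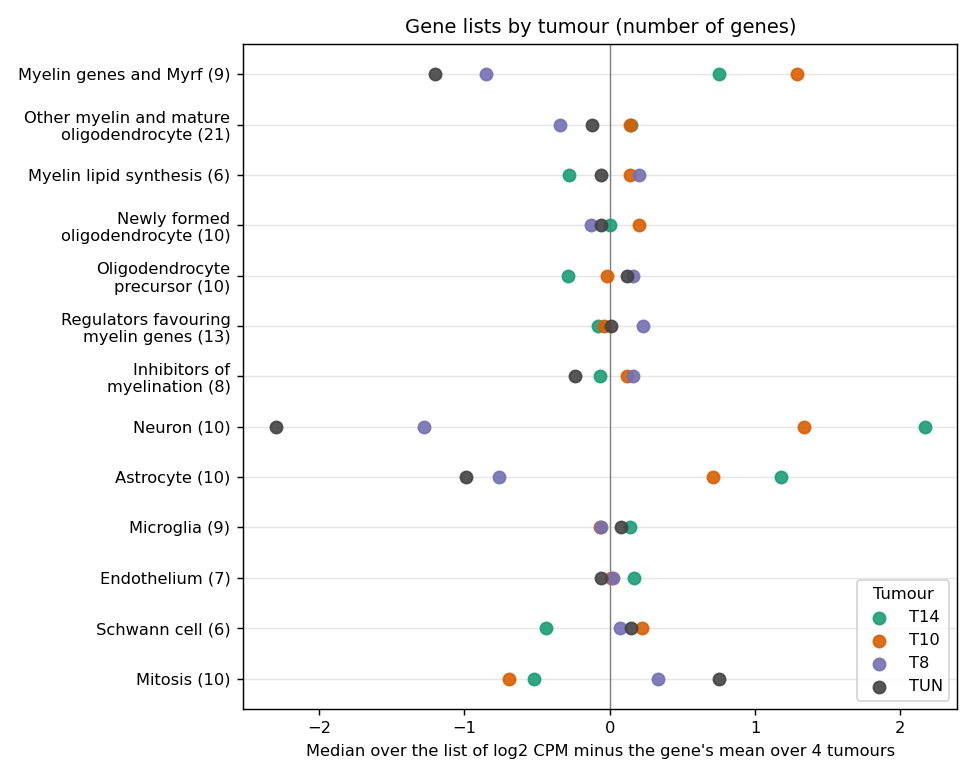
Median over each gene list of log2 CPM minus the gene's mean over the 4 tumours (horizontal axis), for 13 lists (rows, number of genes in brackets) and 4 tumours (points coloured by library). The 9 myelin genes, the neuron genes and the astrocyte genes spread widely with T14 and T10 on the right, and T10 is rightmost for the myelin genes (1.29).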

How the data were processed

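The authors deposited whole-number read counts per gene for 4 tumours, and the submitters' processing notes name STAR, featureCounts and mm10. The table's name gives GENCODE vM8 as annotation. Versions, strand setting and treatment of multi-mapped reads: not given in the sources used here. Symbols were matched for 46451 of 46946 genes. The 4 count columns were used as tumours of 1 group without replicate numbers, with 0 columns left aside. The labels do not say that the tumours came from separate animals or cell lines, so p-values cover only the spread between these samples. Counts were scaled with TMM factors of edgeR 4.0.16 (0.971, 1.01, 0.988 and 1.03) in R 4.3.3. RPKM used the gene length of the deposited table. Ratios of RPKM used log2(RPKM + 0.1), and deviations used log2 CPM with prior count 2. The goodness of fit used the trended dispersion, the default filter on low counts and the chi-square law at 3 degrees of freedom, and was tested on simulated data. With 1 group, genes very low in a library were not tested. DESeq2 1.42.0 gave the alternative calls and size factors. Named genes were all members, the 6 nearest by profile at mean CPM 5 or more, the 3 most abundant and up to 4 called genes of each pathway list, and the 2 most abundant of each other cell type list. Others named (Neu4, Sox6, Nkx6-2, Zfp536, Nefl, Slc17a6, Slc1a3, Sox9, Slco1a4 and Pmp2) were chosen after their values were seen. Some genes are not reported here and stand in no list count. The members and lists were chosen with earlier results of these data known.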

Additional observations from a re-analysis of the deposited data

How the results depend on the processing

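No paired analysis was possible because there is 1 group and the table's columns carry no replicate number of the labels. Leaving out 1 tumour at a time gave 3 to 5 members called in edgeR and 423 to 462 genes called over all, fewer tumours being in the fit. As dispersion outliers in DESeq2, which is not a test with a p-value, the counts were 0 and 78. Other scalings and filters on low counts left 5 members called. In the order of levels, CPM without length moved the mean log2 differences to 1.53 (Mbp minus Cnp), 1.33 (Cnp minus Cldn11), -0.27 (Mal minus Mag), 1.88 (Mag minus Mog) and -1.35 (Mog minus Myrf). The longest transcript as length, chosen after seeing the data, moved Mal minus Mag to -0.45 and Mag minus Mog to 1.36. Mean CPM and median deviations moved by less than 1 SD between tumours under the alternatives run, but that spread is wide: without T10 the mean fell to 13.9 CPM for Mog, 235 for Mobp and 44.4 for Mal, against 22.9, 359 and 67.8 CPM with all 4 tumours. Leaving out 1 tumour gave median deviations of 0.33 to 1.18 in T14, 0.87 to 1.55 in T10, -1.23 to -0.42 in T8 and -1.47 to -0.76 in TUN. Depth limits Mog most, at 102 counts in TUN.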
